A study of Mus musculus with 8 samples.

Results

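Whole pancreas of BDC2.5/NOD.scid mice was set against whole pancreas of BDC2.5/NOD mice, with 2 Affymetrix expression arrays in each group. These 4 arrays, taken by their titles, are among the 8 of the series. Of 12488 probe sets, the 12422 that are not controls were compared, and those with a single symbol stand for 8251 genes. All mice were 3 weeks old. Both groups had the NOD background, the inbred strain that develops autoimmune diabetes, and both carried the BDC2.5 transgene, the rearranged T cell receptor genes of a diabetogenic CD4 T cell clone. BDC2.5/NOD.scid mice also carried scid, a mutation of Prkdc, whose product is needed to join receptor gene segments. The other 4 arrays came from NOD.scid and NOD pancreas, 2 each, without the transgene, and gave the strain difference between other groups; they also enter the fit's estimate of the spread and the choice of probe set. The labels give 2 RNA isolations from 6 animals each, pooled. They leave unsaid whether each array had a pool of its own, so p-values cover the spread among these arrays alone, and that spread may be technical.

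In a scid mouse the lymphocytes that need receptor rearrangement do not mature, so a ready-made receptor transgene leaves T cells of a single specificity and few or no B cells. On the unmutated background the same transgene leaves room for other receptor chains, for B cells and for regulatory T cells. BDC2.5 T cells recognise an islet antigen presented by MHC class II, and the transgene on the scid background is known for early, aggressive islet infiltration. Activated T cells release interferon gamma, which raises antigen presentation genes in many cell types. The exocrine pancreas, which makes up most of the organ, carries a heavy load of protein folding in its endoplasmic reticulum.

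Values are log2 expression values as deposited, so a difference of 1 is a doubling. Each gene is given by 1 probe set, the one with the highest mean over the 8 arrays, and "rose" or "fell" is used for an adjusted p under 0.05 in limma's moderated test with Benjamini-Hochberg adjustment. The scid mutation is a point mutation, and Prkdc itself read 3.40 and 3.49 in BDC2.5/NOD.scid against 3.37 and 3.53 in BDC2.5/NOD, so its level does not check the labels. The tissue read as pancreas on all 4 arrays: the acinar elastase Cela1 stood at 13.18 and 13.16 in BDC2.5/NOD.scid and 13.32 and 13.35 in BDC2.5/NOD. The 2 BDC2.5/NOD.scid arrays correlated at 0.992 over probe sets and the 2 BDC2.5/NOD arrays at 0.996, against 0.981 to 0.983 between the groups. Control probe sets differed between arrays. Replicate 2 of BDC2.5/NOD.scid had an actin control of 9.26, against 7.46 on replicate 1 and 6.95 and 7.21 on the BDC2.5/NOD arrays, and a ratio of 3′ to 5′ actin signal of 4.14 against 3.15 to 3.17 on the other 3. With the actin level as a term 1323 probe sets passed in place of 1037, and with array weights 1293. The BioB spike-in control stood at 6.19 and 5.89 in BDC2.5/NOD.scid against 7.02 and 7.06 in BDC2.5/NOD, and at 6.13 to 6.445 in NOD.scid and NOD, so it moved with the groups compared. Its part in the results was not tested.

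Of 12422 probe sets tested, 1037 (8.35%) differed. In BDC2.5/NOD.scid 372 of them were higher, against 665 that were lower. Counted as genes, 261 of 8251 rose (3.16%) and 502 fell (6.08%), and 44 of the genes that rose and 19 of those that fell moved at least 2-fold. The median over all genes was -0.02. Counts of list members given below are to be read against the shares over all genes, 3.16% higher and 6.08% lower. On 6435 probe sets (51.8%) the arrays of the groups did not overlap, so separation of 2 against 2 arrays is not by itself a sign of difference. The count of 1037 rested on having both arrays of a group. It was 329 without BDC2.5/NOD replicate 2, 370 without BDC2.5/NOD replicate 1 and 635 with replicate 2 of BDC2.5/NOD.scid left out. Leaving out the 3 arrays of the series with a high actin control left a single array in every group except BDC2.5/NOD. The spread then came from the BDC2.5/NOD pair alone, the tightest, with an SD of 0.094 against 0.131 to 0.143 in the other groups. The count of that fit is therefore not comparable with 1037.

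The genes with the largest differences fell into recognisable groups. Among the 15 largest increases were the MHC class II chains H2-Aa and H2-Eb1, the class I chains H2-K1, H2-D1 and B2m, the macrophage lysozyme Lyz2, the acute phase genes Lrg1 and Saa3 and the fuel switch genes Txnip and Pdk4, at 3.21-fold to 7.12-fold. Among the 15 largest decreases were the endoplasmic reticulum chaperones and folding enzymes Hspa5, Hsp90b1, Pdia3, Pdia4, Creld2, Dnajb9 and Dnajc3, the heat shock protein Hsph1 and the lipid synthesis enzymes Fasn and Fdps, at 2.06-fold to 5.27-fold. All 15 of the first set had their highest mean of the 4 groups in BDC2.5/NOD.scid, and all 15 of the second set in BDC2.5/NOD. Over all genes, BDC2.5/NOD.scid was highest for 71.6% of those that rose and BDC2.5/NOD for 83.5% of those that fell.

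**Figure D1:**
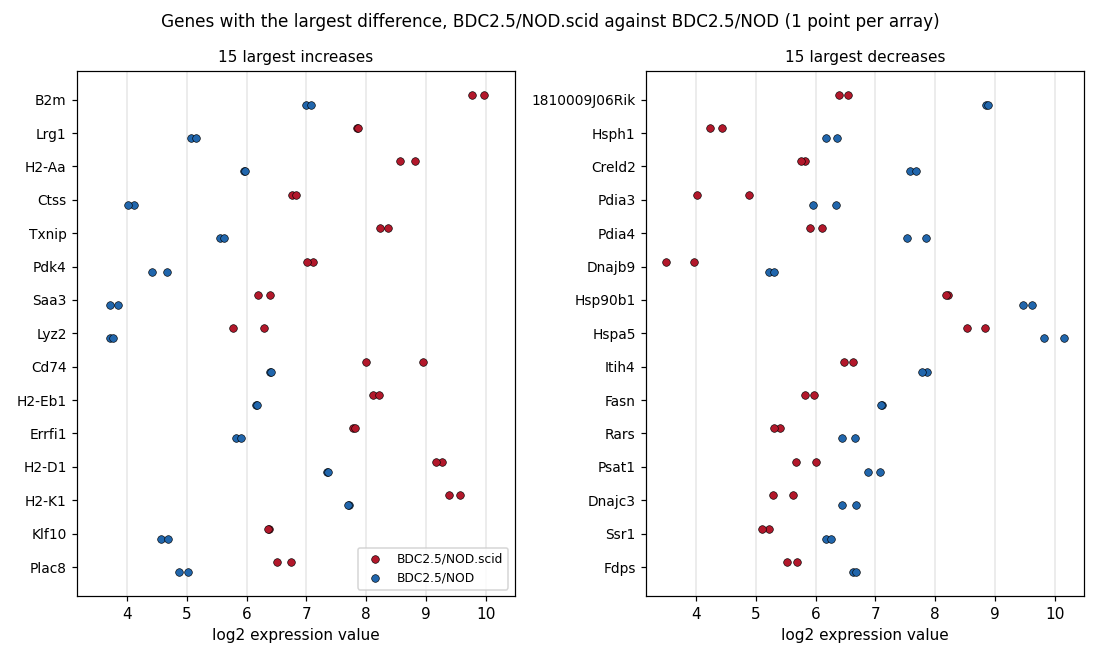
Log2 expression values (horizontal axes) of the 15 genes with the largest increase and the 15 with the largest decrease in BDC2.5/NOD.scid pancreas, with 1 point per array, red for BDC2.5/NOD.scid and blue for BDC2.5/NOD. The groups do not overlap for any of the 30 genes, which the choice of genes required; the 2 BDC2.5/NOD.scid points of Cd74 lie furthest apart, at 8.004 and 8.946.

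MHC class II genes present peptides from taken-up protein to CD4 T cells, and several of them rose. Of 13 members measured, 6 rose and 0 fell, with a list median of 0.36. H2-Aa, the class II alpha chain, read 8.82 and 8.56 in BDC2.5/NOD.scid against 5.95 and 5.97 in BDC2.5/NOD. Both scid arrays were high and far from the other pair, a 6.62-fold difference (log2 2.73, SE 0.1213, adjusted p = 5.63e-08). The beta chain H2-Eb1 read 8.11 and 8.22 in BDC2.5/NOD.scid against 6.16 and 6.17 in BDC2.5/NOD, and the beta chain H2-Ab1 read 6.94 and 6.95 against 5.38 and 5.34. Each pair was tight and clear of the other, with 3.99-fold and 2.99-fold differences.

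The invariant chain Cd74, which guides class II through the cell, read 8.004 and 8.946 in BDC2.5/NOD.scid against 6.40 and 6.41 in BDC2.5/NOD (4.20-fold, adjusted p = 0.000153). Both scid arrays were high but differed from each other by nearly a whole log2 unit. Ctss, a protease that cuts down Cd74 before peptide loading, read 6.75 and 6.82 in BDC2.5/NOD.scid against 4.11 and 4.01 in BDC2.5/NOD (6.6-fold), with no overlap. H2-DMb1, part of the peptide editor, was 1.38-fold higher (adjusted p = 0.048). H2-Ea, which NOD mice are known not to express because of a promoter deletion, read 3.43 and 3.44 in BDC2.5/NOD.scid against 3.54 and 3.42 in BDC2.5/NOD, and did not pass. Ciita, the master regulator of class II transcription, read 4.60 and 4.32 in BDC2.5/NOD.scid and 4.38 and 4.55 in BDC2.5/NOD, overlapping pairs that did not pass (adjusted p = 0.985).

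MHC class I genes present peptides made inside the cell to CD8 T cells. B2m, the light chain shared by class I molecules, had the largest increase of all genes chosen by size. It read 9.97 and 9.77 in BDC2.5/NOD.scid against 6.998 and 7.082 in BDC2.5/NOD, a 7.12-fold difference (log2 2.83, SE 0.0996, adjusted p = 9.91e-09). The heavy chain H2-K1 read 9.58 and 9.39 in BDC2.5/NOD.scid against 7.72 and 7.69 in BDC2.5/NOD, and H2-D1 read 9.27 and 9.17 against 7.34 and 7.37. Both heavy chains were high on both scid arrays, by 3.44-fold and 3.64-fold. Class I probe sets can share sequence between genes, so the split between H2-K1 and H2-D1 is uncertain, and a dimmer H2-K1 probe set differed by only -0.04 and did not pass.

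Of the subunits of the immunoproteasome, the interferon-induced form of the protease that makes class I peptides, Psmb8 and Psmb9 rose, whereas Psmb10 read 7.22 and 7.02 in BDC2.5/NOD.scid against 7.37 and 7.41 in BDC2.5/NOD and did not pass (adjusted p = 0.114). Psmb8 read 5.30 and 5.75 in BDC2.5/NOD.scid against 4.19 and 4.18 in BDC2.5/NOD (2.53-fold, adjusted p = 8.71e-05). Psmb9 was 2.33-fold and the proteasome activator Psme1 1.79-fold higher, also without overlap. Other parts of the route did not pass: the peptide transporter Tap1 read 5.25 and 5.43 in BDC2.5/NOD.scid against 5.44 and 5.51 in BDC2.5/NOD, and its partner Tap2 4.95 and 4.89 against 5.12 and 5.15. Over the class I list, 6 of 17 members rose and 1 fell, and the list median was 0.05. The member that fell was Pdia3, a folding enzyme of the endoplasmic reticulum that also serves class I loading. The 31 subunits of the constitutive proteasome did not share the rise, with 0 higher and 3 lower, and none lower without either BDC2.5/NOD array or without replicate 2 of BDC2.5/NOD.scid.

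Of 35 interferon response genes, 12 rose and 2 fell, with a median of 0.19. The membrane protein gene Ly6e read 9.72 and 9.91 in BDC2.5/NOD.scid against 8.56 and 8.37 in BDC2.5/NOD (2.55-fold, adjusted p = 1.1e-05), although NOD.scid and NOD pancreas stood higher than either, at 9.98 to 10.25. The interferon-inducible GTPase Iigp1 read 5.42 and 6.02 in BDC2.5/NOD.scid against 4.65 and 4.51 in BDC2.5/NOD (2.19-fold). The scid pair was high and widely spread, and the groups did not overlap. Cxcl9, a chemokine induced by interferon gamma, was 1.89-fold higher but dim, at 3.63 and 4.03 in BDC2.5/NOD.scid against 2.98 and 2.84 in BDC2.5/NOD.

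Guanylate-binding proteins and immunity-related GTPases made up most of the rest, with Gbp7 1.60-fold, Gbp3 1.49-fold, Gbp2 1.48-fold and Ifi47 1.48-fold higher. The transcription factor Irf1 was 1.35-fold higher (adjusted p = 0.0358). The 2 members that fell were Lgals3bp, a secreted glycoprotein, and Isg20, an exonuclease, by 1.403-fold and 1.326-fold. The list was sensitive to single arrays: 4 rose and 0 fell without BDC2.5/NOD replicate 1, and 7 rose and 1 fell without BDC2.5/NOD replicate 2.

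The promoters of these genes were searched for the letters GAAANNGAAA on both strands, the core of the interferon-stimulated response element (ISRE), in windows of 300 bases from RefSeq (GRCm38.p6) that run from 250 bases before to 50 after the start. The match was found for 15 of 29 interferon list genes with a promoter (51.7%), for 2 of 14 class I genes (14.3%) and for 1 of 9 class II genes (11.1%), against 3.99% of all 27025 genes. Within the interferon list, 7 of 10 genes that rose (70.0%) and 8 of 17 that did not pass (47.1%) held it. H2-K1, H2-D1, Psmb8, Psmb9, H2-Aa and H2-Eb1 rose and did not hold it. Among measured genes, it was present for 21 of the 211 that rose (9.95%), 14 of the 420 that fell (3.33%) and 3.89% overall. The match and the shorter TTCNNNGAA, the core of the interferon gamma activated site, overlapped in 24 windows; the shorter one was held by 23 of the genes that rose (10.9%) and 8.5% of measured genes. A match describes the letters and does not show a bound site. The stretches of B2m, Ctss and Gbp2 are shown because these genes rose and carry the longer match, whose fixed bases on either strand are in capitals; all run 5′ to 3′ on the plus strand and end before the start.
B2m, chr2:122147503-122147602: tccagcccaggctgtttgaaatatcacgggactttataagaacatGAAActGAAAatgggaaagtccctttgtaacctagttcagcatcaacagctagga
Ctss, chr3:95526720-95526785: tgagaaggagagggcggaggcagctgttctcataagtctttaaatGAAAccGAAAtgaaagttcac
Gbp2, chr3:142620559-142620658: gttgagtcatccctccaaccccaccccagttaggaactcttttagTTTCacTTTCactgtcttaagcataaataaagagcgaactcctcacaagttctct

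Macrophage and monocyte genes rose together with antigen presentation. Of 32 markers, 13 rose and 0 fell, with a list median of 0.35. The markers' levels, summed on the linear scale, were 1565 and 1445 in BDC2.5/NOD.scid against 966 and 987 in BDC2.5/NOD. Lysozyme Lyz2 read 6.29 and 5.77 in BDC2.5/NOD.scid against 3.71 and 3.77 in BDC2.5/NOD, a 4.90-fold difference (log2 2.29, SE 0.1586, adjusted p = 2.54e-06). The endotoxin coreceptor Cd14 read 7.66 and 7.47 in BDC2.5/NOD.scid against 6.36 and 6.29 in BDC2.5/NOD, and was 2.36-fold higher. Both genes were high on both scid arrays with a wide gap to the other pair.

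The defining markers moved less. Cd68 was 1.79-fold higher and Csf1r, the receptor for the macrophage growth factor, 1.36-fold higher, while Adgre1 (F4/80) read 4.88 and 4.84 in BDC2.5/NOD.scid against 4.60 and 4.57 in BDC2.5/NOD and did not pass (adjusted p = 0.208). None was at 0. In whole tissue, more cells of a type and more RNA per cell cannot be told apart, and the part of macrophage number in the rise of class II, Ctss and interferon genes was not tested. In the fit that dropped the 3 high-actin arrays, the median of the macrophage list was 0.41.

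Complement genes and lysosomal proteases, whose lists share C1qa, C1qc and Cd68 with the macrophage list, followed the same direction in part. The classical complement subunit C1qa read 6.55 and 6.54 in BDC2.5/NOD.scid against 5.55 and 5.35 in BDC2.5/NOD (2.14-fold), and C1qc was 1.82-fold higher. C1qb disagreed between its probe sets: the brighter one read 6.848 and 6.497 in BDC2.5/NOD.scid against 6.64 and 6.84 in BDC2.5/NOD and did not pass, and the dimmer one was 2.70-fold higher. Of 15 complement genes, 5 rose and 0 fell, and leaving out either BDC2.5/NOD array or BDC2.5/NOD.scid replicate 1 left 3. Of 24 cathepsin and lysosome genes, 6 rose, among them the sphingolipid activator Psap at 1.69-fold and the protease Lgmn at 1.80-fold. The 2 that fell were Ctse, an aspartic protease, and the lysosomal glucuronidase Gusb, each by 1.93-fold; 3 rose without BDC2.5/NOD replicate 1.

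Lymphocyte markers did not separate the groups. None of 20 T cell genes passed in either direction, with a median of 0.05 and summed levels of 765 and 759 in BDC2.5/NOD.scid against 721 and 743 in BDC2.5/NOD. The T cell receptor partner Cd3e read 5.89 and 5.84 in BDC2.5/NOD.scid and 5.81 and 5.80 in BDC2.5/NOD, and read 5.50 and 5.78 in NOD.scid, in which T cells do not mature. The coreceptor Cd4 read 6.46 and 6.28 in BDC2.5/NOD.scid against 6.29 and 6.30 in BDC2.5/NOD. A difference in T cell RNA was not detectable at this signal, and is not shown to be absent. Of 25 T cell activation genes 1 rose, the chemokine Ccl5, at 4.76 and 4.79 in BDC2.5/NOD.scid against 3.99 and 3.94 in BDC2.5/NOD (1.75-fold, adjusted p = 0.000437).

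Receptor segments gave a few differences. Of 10 T cell receptor probe sets, 3 rose: 2 of Trav9d-3 by 1.57-fold and 1.88-fold and 1 of Trbv1 by 1.88-fold, alpha and beta variable segments. The brighter Trav9d-3 probe set read 7.57 and 7.47 in BDC2.5/NOD.scid against 6.87 and 6.86 in BDC2.5/NOD, but NOD.scid and NOD, without the transgene, read 6.91 to 7.12. Its signal in BDC2.5/NOD was thus no higher than in mice without the transgene. Whether these probe sets detect the segments of the transgene was not checked, so they are not read as a measure of it.

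Of 79 immunoglobulin probe sets, 3 rose and 0 fell, and their median was 0.01. Of all 12422 probe sets 372 rose and 665 fell, so the share that rose was near that of all probe sets. The kappa segment Igkv6-23 read 4.82 and 4.96 in BDC2.5/NOD.scid against 4.13 and 4.22 in BDC2.5/NOD (1.64-fold, adjusted p = 0.00329). It read 3.81 and 3.57 in NOD.scid against 6.03 and 5.76 in NOD, so that both transgenic groups lay between the others. A brighter kappa probe set that includes Igkc read 6.24 and 6.47 in BDC2.5/NOD.scid against 5.62 and 5.655 in BDC2.5/NOD. In NOD.scid it read 5.25 and 5.41, against 7.36 and 7.345 in NOD. Few or no B cells are described above for scid mice, and the reason for the higher kappa signal in BDC2.5/NOD.scid was not tested. The plasma cell gene Jchain was 1.38-fold higher in BDC2.5/NOD.scid, and the other 20 B cell and plasma cell genes did not pass. The list had no call without either BDC2.5/NOD array or without the second BDC2.5/NOD.scid array. The B cell receptor partner Cd79b read 3.52 and 3.44 in BDC2.5/NOD.scid against 3.27 and 3.38 in BDC2.5/NOD. Neither the 13 dendritic cell genes nor the 7 natural killer cell genes gave a call, and the same held for the 11 mast cell and 8 lymph node genes. Of 18 neutrophil genes 3 rose, the plasma protein Hp, the secreted lectin Chil3 and the calcium-binding S100a8.

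Acute phase genes, switched on by interleukin 6 family cytokines through STAT3, gave 9 increases and 1 decrease among 34 (median 0.15). Lrg1, a secreted leucine-rich glycoprotein, read 7.84 and 7.87 in BDC2.5/NOD.scid against 5.07 and 5.16 in BDC2.5/NOD, a 6.69-fold difference (log2 2.74, SE 0.1016, adjusted p = 9.91e-09). Saa3, the serum amyloid A made outside the liver, read 6.39 and 6.19 in BDC2.5/NOD.scid against 3.72 and 3.84 in BDC2.5/NOD (5.70-fold). Both were high on both scid arrays and clear of the other pair. Ceruloplasmin (Cp), haptoglobin (Hp) and the transcription factor Cebpb were 1.96-fold, 1.80-fold and 1.93-fold higher.

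Itih4, an inter-alpha-trypsin inhibitor heavy chain, went the other way, with 6.63 and 6.48 in BDC2.5/NOD.scid against 7.87 and 7.77 in BDC2.5/NOD, 2.41-fold lower. Of 34 chemokine and receptor genes, 4 rose and 1 fell. Ccl8, which attracts monocytes, read 6.15 and 5.98 in BDC2.5/NOD.scid against 4.97 and 4.97 in BDC2.5/NOD (2.13-fold), and Ccl9 was 1.94-fold higher. The receptor Cxcr5, which guides lymphocytes to follicles, was 1.30-fold lower, a call that was lost on dropping any single one of the 4 arrays.

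Protein folding in the endoplasmic reticulum gave the most decreases of any list by number, though not by share. Of 41 members measured, 23 fell and 0 rose, with a list median of -0.44. Hspa5 (BiP), the central chaperone, read 8.83 and 8.53 in BDC2.5/NOD.scid against 9.83 and 10.15 in BDC2.5/NOD, 2.48-fold lower (log2 -1.31, SE 0.1236, adjusted p = 4.04e-05). Hsp90b1 (GRP94), its partner, read 8.22 and 8.19 in BDC2.5/NOD.scid against 9.47 and 9.63 in BDC2.5/NOD (2.54-fold lower). For both, the pairs did not overlap, and the NOD arrays lay at 8.41 to 8.55, close to BDC2.5/NOD.scid. The NOD.scid arrays lay lower, at 7.96 and 7.78 for Hspa5 and 7.685 and 7.621 for Hsp90b1. BDC2.5/NOD.scid was thus above NOD.scid, by 0.812 and 0.552 on the log2 scale.

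Creld2, a stress-induced secreted protein, read 5.81 and 5.75 in BDC2.5/NOD.scid against 7.58 and 7.68 in BDC2.5/NOD, 3.603-fold lower (adjusted p = 4.7e-07). The disulphide isomerases Pdia4 and Pdia3 were 3.21-fold and 3.27-fold lower, and Pdia3 was the more scattered, at 4.88 and 4.01 in BDC2.5/NOD.scid against 5.96 and 6.35 in BDC2.5/NOD. The cochaperones Dnajb9 and Dnajc3 were 2.88-fold and 2.16-fold lower, and the secreted survival factor Manf 1.77-fold lower. Translocon parts, through which new proteins enter the endoplasmic reticulum, were also lower: Ssr1 by 2.09-fold, Sec61a1 by 1.52-fold and Sec61b by 1.501-fold. Some regulators did not move with their targets: Xbp1, the transcription factor of the unfolded protein response, read 7.62 and 7.72 in BDC2.5/NOD.scid against 7.62 and 7.78 in BDC2.5/NOD. Its splicing, by which it is switched on, is not measured by these values. Without BDC2.5/NOD replicate 2 the count that fell was 13 of 41.

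The endoplasmic reticulum stress element (ERSE), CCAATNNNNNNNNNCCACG, is the sequence through which ATF6 and XBP1 act on chaperone genes. Searched on both strands in the same windows, it was held by 7 of 34 list genes with a promoter (20.6%), against 0.137% of all 27025 genes. Of the 7, 5 fell, and Calr and Canx, the lectin chaperones, did not pass. Among the 420 genes that fell and had a promoter, 6 held it (1.43%), against 0 of 211 that rose and 0.182% of the measured genes. The sequences of the 5 that fell are shown because they carry this match and fell by 1.704-fold to 3.603-fold. Capitals mark its fixed bases, read on either strand, and each stretch is 5′ to 3′ on the gene's own strand, upstream of the start. Hsp90b1, on the minus strand, holds it 2 times.
Hspa5, chr2:34771985-34772083: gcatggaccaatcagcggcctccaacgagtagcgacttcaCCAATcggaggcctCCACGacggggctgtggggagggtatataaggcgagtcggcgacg
Hsp90b1, chr10:86705533-86705656: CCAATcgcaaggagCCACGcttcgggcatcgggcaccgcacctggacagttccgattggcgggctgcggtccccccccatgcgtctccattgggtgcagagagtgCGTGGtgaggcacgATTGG
Creld2, chr15:88819480-88819578: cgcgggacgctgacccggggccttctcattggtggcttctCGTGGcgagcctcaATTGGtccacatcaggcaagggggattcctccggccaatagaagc
Pdia6, chr12:17266451-17266549: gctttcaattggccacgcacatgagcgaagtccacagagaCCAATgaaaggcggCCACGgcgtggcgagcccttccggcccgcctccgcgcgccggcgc
Dnajc3, chr14:118937787-118937885: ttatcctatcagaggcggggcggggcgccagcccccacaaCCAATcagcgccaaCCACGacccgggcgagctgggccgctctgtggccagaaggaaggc

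The ATF4 arm, which raises amino acid supply and transfer RNA charging under stress, fell as well. Of 31 members, 18 fell and 1 rose, with a median of -0.41; Atf4, Ddit3 and Asns are also on the list before. Atf4 itself read 8.27 and 8.18 in BDC2.5/NOD.scid against 8.98 and 8.97 in BDC2.5/NOD (1.68-fold lower, adjusted p = 0.000142). Psat1, of serine synthesis, read 6.00 and 5.67 in BDC2.5/NOD.scid against 6.87 and 7.08 in BDC2.5/NOD (2.20-fold lower), and Mthfd2, of mitochondrial folate metabolism, was 1.87-fold lower. Each pair was clear of the other.

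The transfer RNA synthetases Eprs, Nars and Aars were 1.97-fold, 1.92-fold and 1.51-fold lower. The amino acid transporter subunit Slc3a2 was 1.64-fold lower. The member that rose was Cebpb, which is also on the acute phase list. Without BDC2.5/NOD replicate 2, 10 of the 31 fell.

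Cytosolic and mitochondrial heat shock genes gave 13 decreases and 0 increases among 23 (median -0.49). Hsph1 (HSP110) read 4.43 and 4.24 in BDC2.5/NOD.scid against 6.17 and 6.36 in BDC2.5/NOD, 3.82-fold lower (log2 -1.93, SE 0.1193, adjusted p = 9.19e-07). Most others moved less: Hsp90aa1 by 1.73-fold, Bag3 by 1.60-fold, Hspa8 by 1.57-fold and Hspd1 by 1.55-fold. The count depended on single arrays, with 3 without BDC2.5/NOD replicate 2 and 7 without BDC2.5/NOD replicate 1. It was 8 when the second BDC2.5/NOD.scid array was dropped. Of the members of the 3 stress lists that fell, most had their highest mean of the 4 groups in BDC2.5/NOD: 20 of 23, 17 of 18 and 11 of 13. Over all genes that fell the share was 83.5%, so the ATF4 list lay somewhat above it and the other lists near it.

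**Figure D2:**
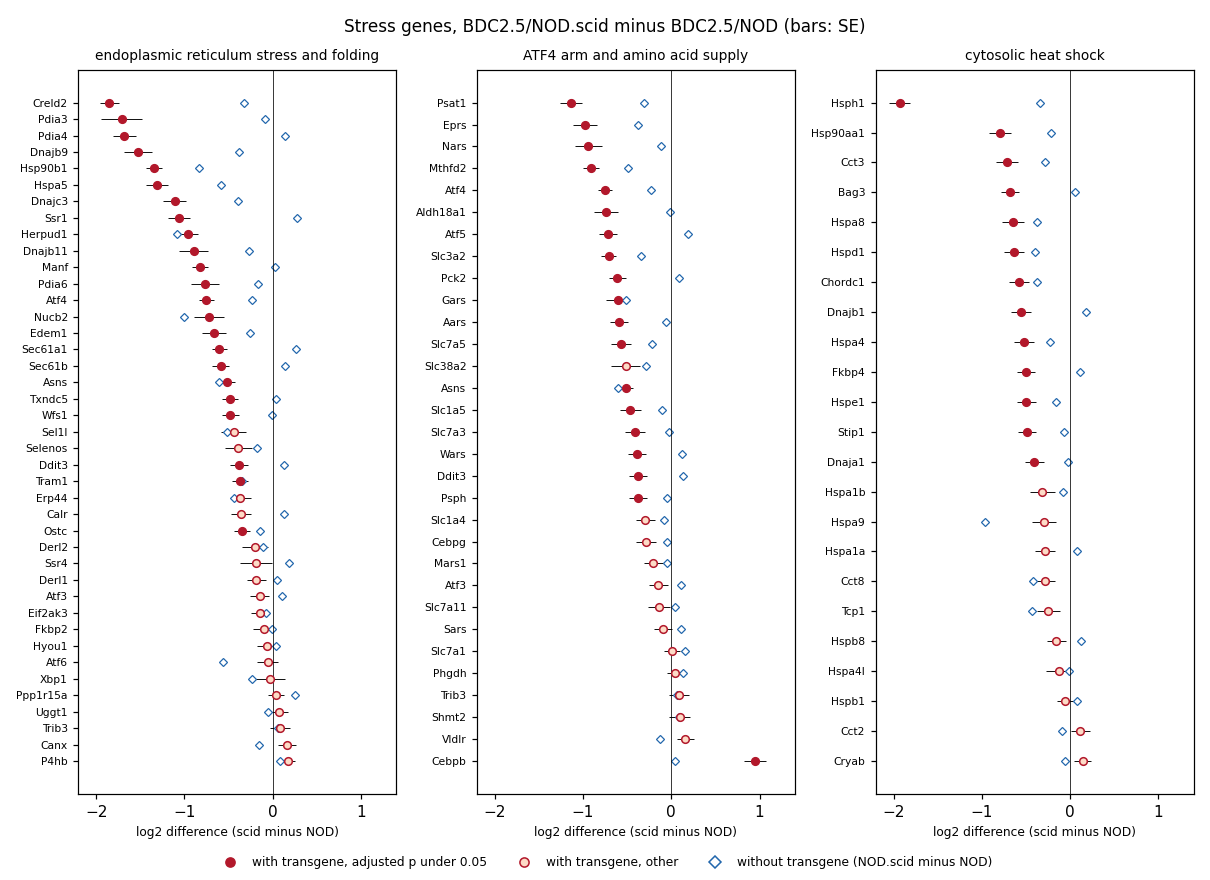
Log2 differences (horizontal axes) of every measured member of 3 stress lists, with circles for BDC2.5/NOD.scid minus BDC2.5/NOD (filled where adjusted p is under 0.05, bars for the SE) and open diamonds for NOD.scid minus NOD. Most circles lie left of 0, 23, 18 and 13 of them past the threshold, while the diamonds cluster nearer to 0; Cebpb is the member that rose.

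Digestive enzyme genes changed little by comparison. Of 23 acinar genes, 4 fell and 1 rose, with a median of -0.08, and the summed level was 93130 and 91700 in BDC2.5/NOD.scid against 95840 and 99460 in BDC2.5/NOD. Syncollin (Sycn), a zymogen granule protein, read 10.86 and 11.01 in BDC2.5/NOD.scid against 11.73 and 11.80 in BDC2.5/NOD (1.78-fold lower, adjusted p = 0.000122). The phospholipase Pla2g1b was 1.73-fold, the amylase Amy1 1.63-fold and the trefoil peptide Tff2 1.43-fold lower, and the lipase-related Pnliprp1 1.24-fold higher. The gene 1810009J06Rik fell most of all named genes, with 6.55 and 6.39 in BDC2.5/NOD.scid against 8.85 and 8.89 in BDC2.5/NOD (5.27-fold lower, adjusted p = 9.91e-09).

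Genes of fatty acid oxidation and fuel choice rose, 11 of 29 with 0 lower and a median of 0.24. Txnip, an inhibitor of thioredoxin and of glucose uptake that is induced by glucose, read 8.24 and 8.37 in BDC2.5/NOD.scid against 5.55 and 5.62 in BDC2.5/NOD, a 6.56-fold difference (log2 2.71, SE 0.0952, adjusted p = 9.91e-09). Pdk4, which turns pyruvate away from oxidation, read 7.11 and 7.01 in BDC2.5/NOD.scid against 4.66 and 4.41 in BDC2.5/NOD (5.76-fold). The groups were far apart for both. NOD.scid and NOD lay between them for Txnip, at 6.64 to 7.11, so BDC2.5/NOD was low as well as BDC2.5/NOD.scid high. A dimmer Txnip probe set did not pass (log2 0.35, adjusted p = 0.125).

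Cpt1a, the gate of fatty acids into mitochondria, read 7.11 and 6.92 in BDC2.5/NOD.scid against 5.49 and 5.45 in BDC2.5/NOD (2.92-fold), with NOD at 7.11 and 7.01. The oxidation enzymes Acaa2, Ech1 and Eci2 were 2.35-fold, 2.45-fold and 1.997-fold higher, and the thioesterase Acot1 2.47-fold. Of the 11 genes, 10 had their lowest mean of the 4 groups in BDC2.5/NOD, against 69% of all genes that rose. Without BDC2.5/NOD replicate 1, 7 rose. Of 55 respiratory chain and ATP synthase genes, 0 rose and 4 fell, a share near that of all genes, among them the complex III subunit Uqcrq by 1.60-fold; 1 fell when either BDC2.5/NOD array or the second BDC2.5/NOD.scid array was dropped.

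Single enzymes of lipid synthesis fell, while the list as a whole, with a median of -0.05, lay near all genes. Fasn, the fatty acid synthase, read 5.82 and 5.97 in BDC2.5/NOD.scid against 7.11 and 7.10 in BDC2.5/NOD (2.31-fold lower, adjusted p = 0.000114). The desaturase Scd1 was 2.005-fold and the lipogenic regulator Thrsp 1.48-fold lower. They were 3 of the 4 that fell among 24 adipocyte and lipogenesis genes, while the adipocyte hormone Adipoq read 4.44 and 4.03 in BDC2.5/NOD.scid against 4.18 and 4.34 in BDC2.5/NOD and did not pass. Without BDC2.5/NOD replicate 2, 2 of the 24 fell. Fdps, of the mevalonate pathway, was 2.06-fold lower, with 2 of its dimmer probe sets not passing.

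Immediate early and feedback genes, which answer signalling within minutes to hours, rose in 9 of 31 cases with 0 lower (median 0.13). Gadd45b, a stress-response gene, read 7.53 and 7.43 in BDC2.5/NOD.scid against 6.70 and 6.65 in BDC2.5/NOD (1.75-fold, adjusted p = 0.000103). The phosphatase Dusp1 was 1.82-fold, the NF-kB inhibitor Nfkbia 1.61-fold and the RNA-decay factor Zfp36 1.39-fold higher. Leaving out either BDC2.5/NOD array left 4 that rose. Outside the list, Errfi1, a feedback inhibitor of the EGF receptor, was 3.82-fold higher and Klf10, a TGF-beta-induced transcription factor, 3.36-fold higher. Their dimmer probe sets also rose, by 2.11-fold for Errfi1 and 2.99-fold for Klf10. Plac8, a small cysteine-rich protein gene, was 3.21-fold higher.

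The metallothioneins Mt1 and Mt2, which bind zinc and rise with inflammation and glucocorticoids, increased on both arrays. Mt1 read 11.34 and 11.20 in BDC2.5/NOD.scid against 9.88 and 9.77 in BDC2.5/NOD (2.72-fold, log2 1.44, SE 0.084, adjusted p = 5.82e-07), and Mt2 was 2.58-fold higher. On the list of metallothionein and antioxidant genes 6 of 36 rose, and 1 fell, the peroxiredoxin Prdx2.

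**Figure D3:**
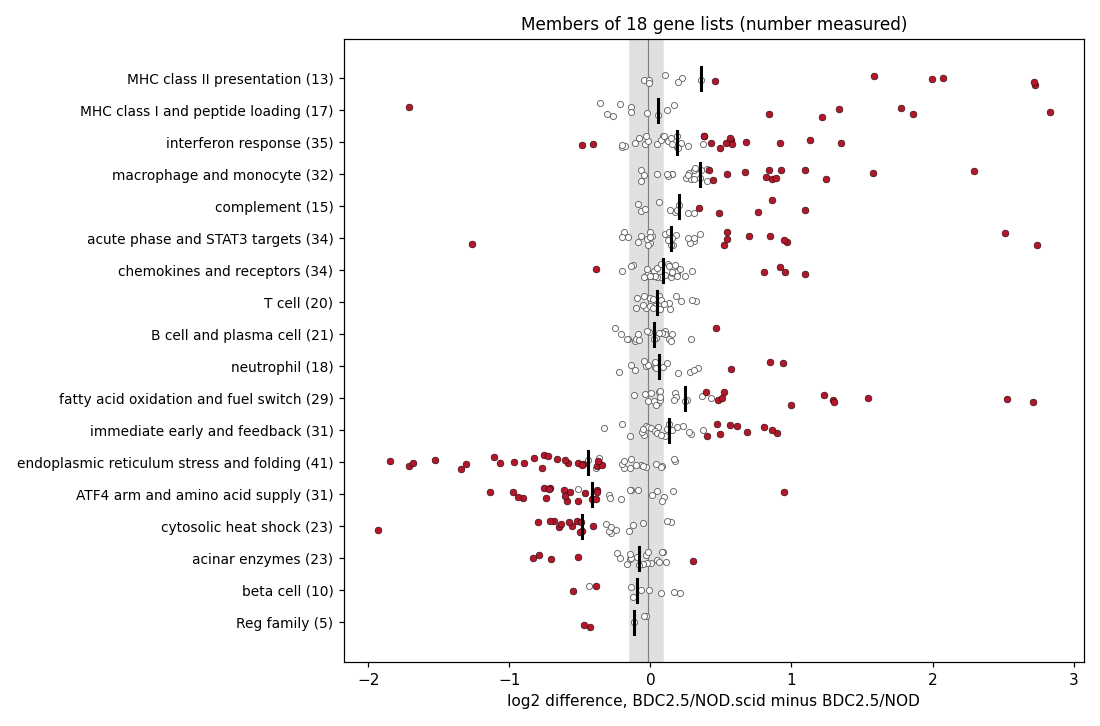
Log2 differences (horizontal axis) of the measured members of 18 gene lists, BDC2.5/NOD.scid minus BDC2.5/NOD, with 1 point per gene, red where adjusted p is under 0.05, a black bar at each list's median and a grey band for the middle 50% of all genes (-0.15 to 0.09). The medians of the endoplasmic reticulum, ATF4 and heat shock lists lie at -0.44, -0.41 and -0.49, those of class II and macrophage genes at 0.36 and 0.35, and that of T cell genes at 0.05.

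Islet genes changed modestly. Ins2, preproinsulin, read 10.35 and 10.20 in BDC2.5/NOD.scid against 10.85 and 10.80 in BDC2.5/NOD, 1.46-fold lower (log2 -0.55, SE 0.0865, adjusted p = 0.00181). The pairs did not overlap, and NOD.scid and NOD stood higher than either, at 11.53 to 11.81. A dim second Ins2 probe set did not pass (log2 0.08). Iapp, the amyloid peptide secreted with insulin, read 4.29 and 3.84 in BDC2.5/NOD.scid against 4.54 and 4.47 in BDC2.5/NOD, and did not pass (adjusted p = 0.107). The hormones of the other islet cells, glucagon (Gcg), somatostatin (Sst) and pancreatic polypeptide (Ppy), differed by -0.36, -0.03 and -0.02, none past the threshold. A dimmer Ppy probe set read 4.49 and 4.32 in BDC2.5/NOD.scid against 4.83 and 4.79 in BDC2.5/NOD, and passed (log2 -0.41, adjusted p = 0.0483). Of 10 beta cell genes 2 fell, Ins2 and the gap junction gene Gjd2 (1 without either BDC2.5/NOD array or without the second BDC2.5/NOD.scid array), and none of 13 islet transcription factors passed. Of 20 granin and prohormone processing genes 2 fell, the amidating enzyme Pam and the convertase inhibitor Pcsk1n. That count was 0 without BDC2.5/NOD replicate 2 and 1 without replicate 1 of either group.

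The Reg family, secreted lectins made by acinar cells on injury, was high in both groups. Reg2 read 12.28 and 12.02 in BDC2.5/NOD.scid against 12.08 and 12.28 in BDC2.5/NOD, overlapping values. Reg3b read 12.91 and 12.86 against 12.92 and 12.94, and neither of these probe sets passed. A much dimmer Reg2 probe set read 4.67 and 4.53 in BDC2.5/NOD.scid against 5.11 and 5.19 in BDC2.5/NOD, and was 1.46-fold lower (adjusted p = 0.0137). In NOD.scid and NOD, Reg2 lay at 7.96 to 9.65 and Reg3b at 7.79 to 9.09. Reg3a and Reg3g were 1.34-fold and 1.39-fold lower in BDC2.5/NOD.scid (adjusted p = 0.0178 and 0.0301), and Reg1, 12.74 and 12.57 against 12.74 and 12.80, did not pass. Both calls were lost without either BDC2.5/NOD array and without the second BDC2.5/NOD.scid array.

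Structural and growth lists gave small numbers of calls, where 3.16% of all genes rose and 6.08% fell. The duct list lay above both shares. The matrix, ribosomal, apoptosis and red cell lists lay above the first share, and the imprinted and nerve lists above the second. Of 51 matrix and fibroblast genes 3 rose and 3 fell. Dcn, the proteoglycan decorin, read 8.13 and 8.34 in BDC2.5/NOD.scid against 6.91 and 7.12 in BDC2.5/NOD (2.33-fold), and the collagen chaperone Serpinh1 was 1.86-fold lower; the collagen gene Col1a1 read 7.51 and 7.37 in BDC2.5/NOD.scid against 7.46 and 7.42 in BDC2.5/NOD. Of 30 duct and epithelial injury genes 3 rose and 4 fell, of which 0 rose and 1 fell without either one of the BDC2.5/NOD arrays. Cell cycle genes gave 0 higher and 2 lower of 54, imprinted growth genes 0 and 2 of 15, ribosomal protein genes 3 and 0 of 32, and endothelial genes 0 of 20 in either direction. Apoptosis and NF-kB genes gave 3 higher of 35, and nerve and glia genes 1 lower of 14. Counts this small depended on single arrays. Without BDC2.5/NOD replicate 1 the matrix list gave 1 higher and 1 lower and the apoptosis list 1 higher, and the ribosomal, imprinted, nerve and red cell lists gave none. The red cell markers Hba-a1 and Hbb-b2 were 1.42-fold and 1.33-fold higher, with their list's summed level at 2148 and 2286 in BDC2.5/NOD.scid against 1589 and 1621 in BDC2.5/NOD. That sum was 4992 and 4759 in NOD.scid and 2539 and 2262 in NOD, so BDC2.5/NOD was the lowest group. Of the 11 red cell genes measured, 2 rose, both highest in NOD.scid.

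The same strain difference without the transgene gave fewer calls. In NOD.scid against NOD, 292 probe sets (2.35%) passed, with 68 genes higher (0.824%) and 157 lower (1.9%). Of the 763 genes called with the transgene and the 225 called without it, 73 were called in both, 9.57% of the first set and 32.4% of the second, and 49 of them had the same sign. The difference between the scid differences, a test on 8 arrays in which the pairs share no sample, passed for 586 probe sets (4.72%), with 205 genes more positive (2.48%) and 239 more negative (2.9%) with the transgene. Of the 763 genes, 324 (42.5%) also passed this test. It passed for all 15 of the largest increases and for 14 of the 15 largest decreases, the exception being Rars, an arginine transfer RNA synthetase (adjusted p = 0.0515). These genes were chosen by the size of the difference with the transgene, which is part of this test. The counts over them are therefore a description.

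The antigen presentation and macrophage lists had calls with the transgene and none without it. In NOD.scid against NOD, 0 of 13 class II, 0 of 17 class I and 0 of 32 macrophage genes passed in either direction, and the difference between the scid differences passed for 5, 7 and 9 of them, more positive with the transgene except for Pdia3 of the class I list. H2-Aa read 5.64 and 5.80 in NOD.scid against 5.75 and 6.06 in NOD. For Hspa5 and Hsp90b1 the decrease was present in both pairs and larger with the transgene: Hspa5 differed by -1.31 with it and -0.59 without it, and the 2 values differed (adjusted p = 0.0365). Herpud1, another stress gene of the endoplasmic reticulum, fell by 0.96 on the log2 scale with the transgene and by 1.08 without it, with no difference shown between them (adjusted p = 0.797). Scd1 fell by 1.004 on the log2 scale with it and by 1.13 without it, again with no difference shown (adjusted p = 0.694). Sgk1, a kinase induced by glucocorticoids, rose 1.404-fold with the transgene and fell by 1.44 on the log2 scale without it (adjusted p of the difference 5.46e-05).

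Some genes differed mainly in the pair without the transgene, or moved in opposite directions. Sesn1, a p53-induced stress gene, read 7.21 and 7.11 in BDC2.5/NOD.scid against 5.72 and 5.79 in BDC2.5/NOD, and 4.78 and 4.80 in NOD.scid against 6.05 and 6.25 in NOD. It rose 2.65-fold with the transgene and fell by 1.36 on the log2 scale without it. Car2, a carbonic anhydrase of ducts and red cells, read 4.17 and 4.08 in BDC2.5/NOD.scid against 3.57 and 3.77 in BDC2.5/NOD, and 6.70 and 6.85 in NOD.scid against 4.10 and 4.18 in NOD. Wdr92 was low in NOD.scid alone, at 8.65 and 7.94, against 11.33 and 11.17 in NOD, and differed by 0.37 with the transgene, where it did not pass. Xist, the RNA that coats the silenced X in female cells, read 4.19 and 5.92 in BDC2.5/NOD.scid against 3.71 and 3.69 in BDC2.5/NOD, and 3.35 and 3.52 in NOD.scid against 7.26 and 4.60 in NOD. Its values varied within BDC2.5/NOD.scid and within NOD, but little within BDC2.5/NOD and NOD.scid. The part of the sex of the pooled animals in other results was not tested.

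**Figure D4:**
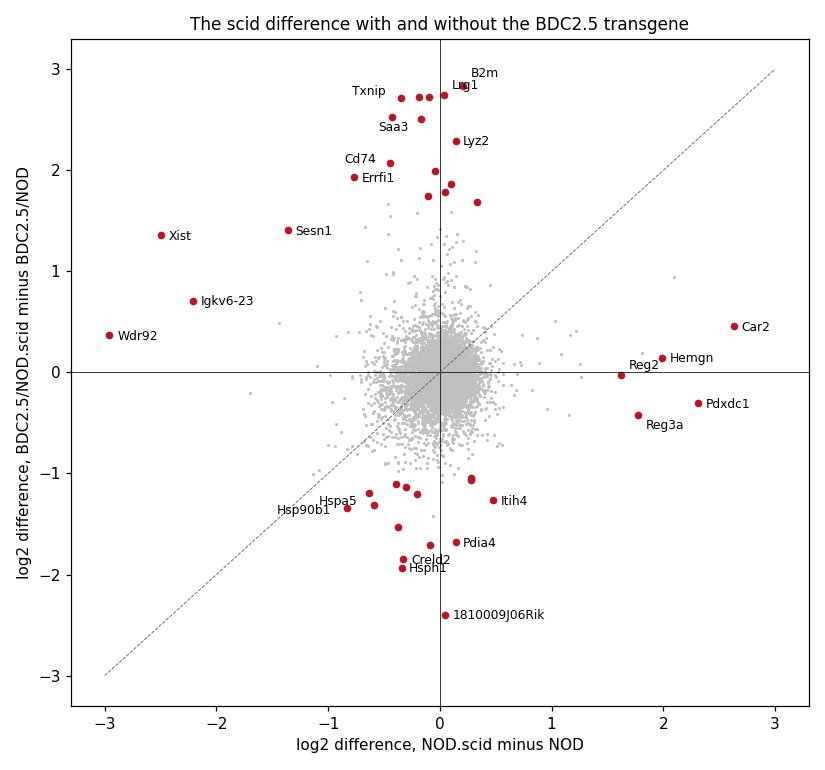
Log2 difference of each of 8251 genes (grey) in BDC2.5/NOD.scid minus BDC2.5/NOD (vertical axis) and in NOD.scid minus NOD (horizontal axis), with the genes named by size in red and a dashed line where both are equal. The largest vertical differences, such as B2m at 2.83 and 1810009J06Rik at -2.40, lie near 0 horizontally, and Wdr92, at -2.96 horizontally, lies at 0.37 vertically.

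The order of the 4 groups is given as a description, since choosing genes by this difference favours these groups as the extremes. Of the 261 genes that rose, BDC2.5/NOD.scid had the highest mean of the 4 groups for 187 (71.6%), and BDC2.5/NOD the lowest for 180 (69%). Of the 502 genes that fell, BDC2.5/NOD had the highest mean for 419 (83.5%), and BDC2.5/NOD.scid the lowest for 353 (70.3%). Among class II, class I and macrophage genes, BDC2.5/NOD.scid was highest for all 6, 6 and 13 that rose. Fatty acid oxidation genes were mixed: BDC2.5/NOD.scid was highest for 5 of 11 and NOD for 5.

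**Figure D5:**
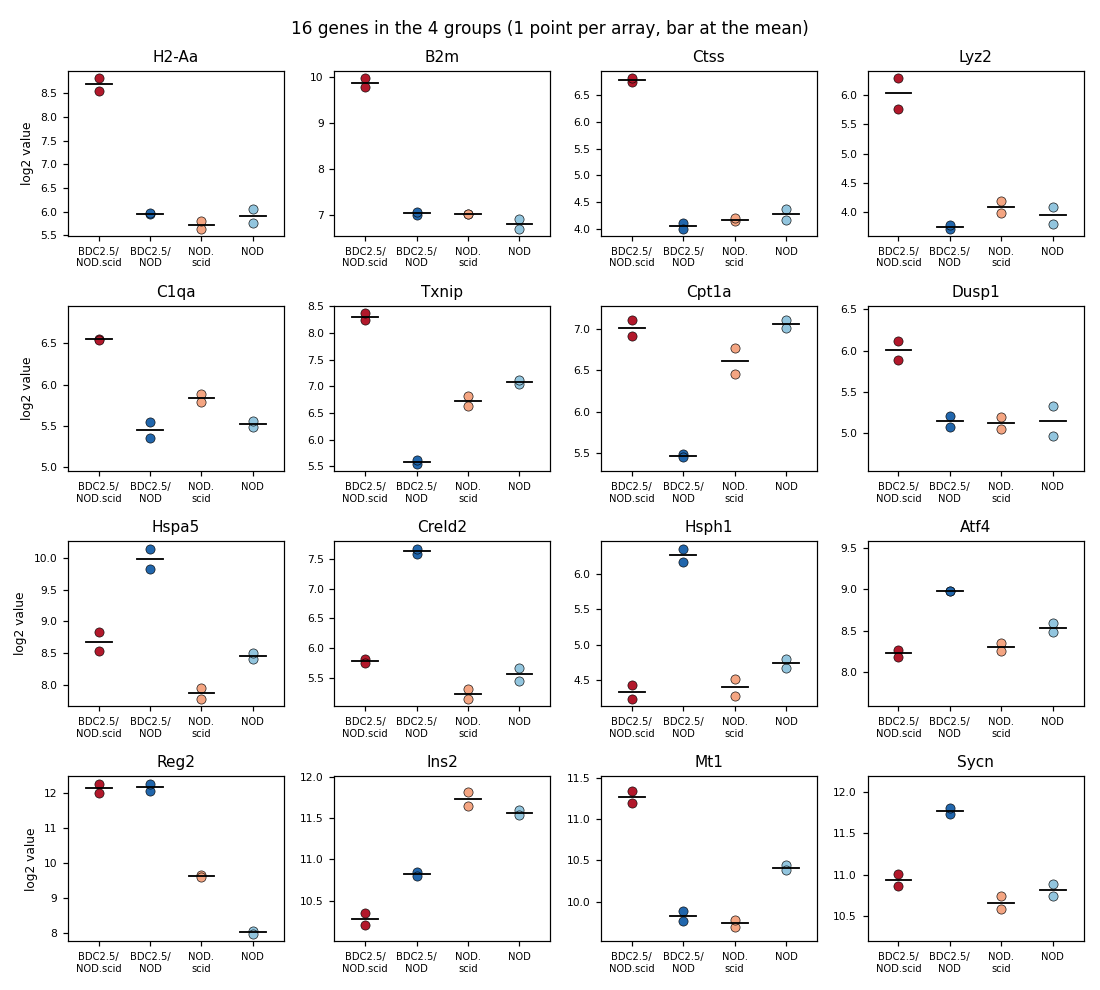
Log2 values (vertical axes) of 16 genes in the 4 groups, with 1 point per array and a bar at the group mean. BDC2.5/NOD.scid stands alone for H2-Aa, B2m, Ctss, Lyz2, C1qa, Dusp1 and Mt1, BDC2.5/NOD stands high for Hspa5, Creld2, Hsph1, Atf4 and Sycn and low for Txnip and Cpt1a, and both transgenic groups stand high for Reg2 and low for Ins2.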

How the data were processed

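RNA of whole pancreas was measured on 8 Affymetrix arrays, 2 per group. The deposited table holds 1 value per probe set and array, taken to be log2 from its range of 2.02 to 13.78; no source used here states the authors' normalization. Values were used as deposited. The 66 control probe sets were left out. The platform annotation gave 1 symbol to 10833 probe sets, several to 396 and none to 1193; 10817 symbols matched RefSeq (GRCm38.p6). A model of 4 group means over 8 arrays was fitted in limma 3.58.1 (R 4.3.3), by eBayes with trend (4 residual and 8.07 prior degrees of freedom), two-sided, with Benjamini-Hochberg adjustment over 12422 probe sets at 0.05. On data simulated for BDC2.5/NOD.scid against BDC2.5/NOD, 82.4% of probe sets changed by 0.5 on the log2 scale were recovered and 6.79% of calls were false. The simulation used independent normal noise of the fitted spread and planted increases in 200 probe sets only. Its rates hold for that setting and do not cover differences between animals that the arrays may not sample. The number of arrays limits the precision.

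Genes were named by size, 15 per direction for the comparison and 8 for the difference between the scid differences, each with 1 symbol. For the comparison, the arrays did not overlap and the higher mean lay above the median of 4.27. For the difference between the scid differences, only the highest of the 4 group means had to lie above it. Others were named by the 8 smallest p in each of 40 lists (970 of 1241 entries measured), and from a preset set. Members, lists and rule were chosen with earlier results of these data known. Aars, Adgre1, Adipoq, Asns, Canx, Ciita, Col1a1, Csf1r, Ddit3, Herpud1, Irf1, Isg20, Lgals3bp, Nars, Pdia6, Psmb10, Sec61a1, Sec61b, Sgk1, Tap1 and Tap2 are list members outside that rule, chosen after their values were seen. Alternatives covered normalization, filters, thresholds, variance priors, array weights, RNA quality and each array left out.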

Additional observations from a re-analysis of the deposited data

Results flagged for a closer look

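For 41 of 57 genes named, the scid difference with the transgene differed from that without it in limma's test of the difference itself, at adjusted p values of 3.45e-07 (Txnip) to 0.0453 (Dnajc3). Many of the 57 were named for the size of this difference or of its part with the transgene, so the count of 41 is a description. Values below are BDC2.5/NOD.scid minus BDC2.5/NOD less NOD.scid minus NOD, on the log2 scale. Among antigen presentation genes it was 2.913 for H2-Aa, 1.483 for H2-Ab1, 2.037 for H2-Eb1, 2.518 for Cd74, 2.82 for Ctss, 2.622 for B2m, 1.738 for H2-K1 and 1.766 for H2-D1. It was 2.152 for the macrophage gene Lyz2, 2.705 for Lrg1, 2.677 for Saa3, 3.064 for Txnip, 2.952 for Pdk4, 2.704 for Errfi1, 1.858 for Klf10 and 1.354 for Plac8. Each of these genes rose with the transgene. For Sesn1 (2.768), an increase of 1.41 with the transgene and a difference of -1.36 without it made up the value in about equal parts. Igkv6-23 (2.918), Wdr92 (3.328) and Xist (3.851) owed their values largely to lower levels in NOD.scid than in NOD.

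Among folding and stress genes it was -0.72 for Hspa5, -0.512 for Hsp90b1, -1.619 for Pdia3, -1.82 for Pdia4, -1.523 for Creld2, -1.153 for Dnajb9, -0.713 for Dnajc3, -1.339 for Ssr1, -1.589 for Hsph1 and -0.83 for Psat1. It was -1.005 for Fasn, -1.323 for Fdps, -1.744 for Itih4, -2.444 for 1810009J06Rik and -0.715 for Ins2. The dimmer Dnajc3 probe sets gave 0.028, -0.139 and -0.016 and did not pass in limma's test (adjusted p = 0.972, 0.77 and 0.983). Reg2 (-1.648), Reg3a (-2.198), Reg3b (-1.307), Car2 (-2.176), Hemgn (-1.844) and Pdxdc1 (-2.615) owed their values largely to higher levels in NOD.scid than in NOD. Pdxdc1 disagreed between its probe sets. The dimmer ones gave 1.002 and 0.55 in limma's test (adjusted p = 0.00205 and 0.0299), so the direction for this gene is uncertain.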

How the results depend on the processing

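The count of 1037 probe sets became 311 when both BDC2.5/NOD arrays were averaged into 1 sample, 2138 without the arrays of high actin control, 484 at an adjusted p under 0.01 and 393 with at least a 1.5-fold difference. Leaving out 1 array gave 329 to 1149. In NOD.scid against NOD, the count of 292 became 109 at an adjusted p under 0.01 and 139 with at least a 1.5-fold difference, and 71 to 352 on leaving out 1 array. For the difference between the scid differences, the count of 586 became 229 at an adjusted p under 0.01 and 195 to 491 on leaving out 1 array. The share of the calls that were higher was 35.9%. With 2 arrays kept in each group it ran from 33.0% (only probe sets brighter than the median) to 43.8% (quantile normalization). Leaving out single arrays moved it in both directions. The cause was not tested, beyond the fewer arrays in the fits that leave some out. Of 964 values of 51 named genes under the alternatives, 953 kept their side of the threshold, 9 were no longer past it (Reg3a and Reg3g), and 2 passed newly (Iapp and Xist). Many of the 51 genes were named for a large difference in the fit of all arrays, which favours keeping their side of the threshold. The count of 953 is therefore a description. The sign changed in 27 of the 964 values, of 10 genes that did not pass and differed by at most 0.08 (Prkdc and Reg2 among them), and in no value past the threshold. Of 759 list medians, 14 moved by more than 0.1, and 31, of 11 lists with medians of at most 0.09 in size, changed sign. No paired analysis was possible because each title carries either the number 1 or none, so that the groups share fewer than 2 numbers.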

Other observations

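A few genes outside the lists were chosen after their values were seen and are given as values. The glucocorticoid-induced Fkbp5 read 6.504 and 6.412 in BDC2.5/NOD.scid against 5.66 and 5.57 in BDC2.5/NOD (log2 0.84, adjusted p = 0.000234), and the stress gene Ddit4 differed by 0.89 (adjusted p = 0.000119). The lipoprotein gene Apoe, much expressed in macrophages, read 7.82 and 7.70 in BDC2.5/NOD.scid against 6.505 and 6.684 in BDC2.5/NOD, and the lectin Clec4d and the lipase Pla2g7 differed by 1.05 and 1.27. The coat proteins of vesicles leaving the endoplasmic reticulum, Sec23b and Sec31a, differed by -0.89 and -0.87. Of the sterol synthesis enzymes, Idi1 differed by -0.75 (adjusted p = 0.00128), whereas Hmgcs1 at -0.27 and Sqle at -0.20 did not pass in limma's test (adjusted p = 0.177 and 0.354).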
